A study of Homo sapiens with 16 samples.

Results

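The genes described here are 10 chemokine and NF-κB target genes, CXCL1, CXCL2, CXCL3, CXCL8, CCL20, NFKBIA, TNFAIP3, BIRC3, RELB and SQSTM1, taken by gene symbol from a table of read counts for 66023 genes. All 10 had a row. RNA was sequenced from 16 samples of 6 lines made from SW480, an established cell line of a human colon adenocarcinoma. The study asked how lowering or raising Ajuba, a LIM domain scaffold protein encoded by AJUBA, alters the transcriptome of these cells.

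All lines were grown in DMEM with serum. Parental cells (n = 2) were unmodified. The shScrambled line (n = 2) carried a lentiviral pLKO.1-puro control shRNA with no mammalian target. The shAjuba1 line (n = 3) carried a lentiviral shRNA against the coding region of AJUBA, and the shAjuba2 line (n = 3) carried one against its non-coding region. The Ajuba OE line (n = 3) was transduced with a lentiviral Ajuba construct with a CMV promoter, a FLAG-HA tag and an IRES-linked puromycin resistance gene, and Control (n = 3) received the same construct after the Ajuba sequence had been cut out. The 5 transduced lines were selected with puromycin, whereas Parental cells were not transduced. How many transductions stand behind each of these lines is not given in the sources used here. The study calls the samples of a line technical replicates, so the p-values below measure only the spread between those samples.

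NF-κB is a family of dimeric transcription factors that are held in the cytoplasm by IκB proteins until IκB kinases mark these inhibitors for degradation. Its targets include neutrophil-attracting chemokines and several of its own inhibitors, which close a feedback loop. In the non-canonical branch of the pathway the dimer of RelB with p52, the processed product of NFKB2, is released by the kinase NIK. The ubiquitin-binding scaffold p62, encoded by SQSTM1, brings TRAF6 together with atypical protein kinase C upstream of the IκB kinases, and Ajuba is a known partner of p62 and TRAF6.

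Totals ranged from 30132396 to 69684675 counted read pairs per sample. Levels are given as RPM, the count divided by the sample's total and multiplied by 1000000, or as counts where these are low. AJUBA stood at 88.8 and 91.6 RPM in Parental and at 83.4 and 81.6 RPM in shScrambled. It stood at 49.6, 47.3 and 53.5 RPM in shAjuba1 and at 60.3, 68.6 and 57.1 RPM in shAjuba2. All knockdown samples were thus below the samples of both of these lines, although the difference from shScrambled passed the test for shAjuba1 (log2 fold change -0.73 ± 0.08 (SE), edgeR adjusted p = 2.19e-05) and not for shAjuba2 (-0.46 ± 0.13 (SE), edgeR adjusted p = 0.0773). The difference from Parental passed for both, at -0.88 in shAjuba1 (edgeR adjusted p = 1.155e-05) and -0.60 in shAjuba2 (edgeR adjusted p = 0.0364). The level was 89.6, 101 and 89.4 RPM in Control and 550, 462 and 566 RPM in Ajuba OE (log2 fold change 2.56 ± 0.11 (SE), edgeR adjusted p = 7.69e-05). Of 10 colon epithelial markers, 7 had a median above 10 RPM, with KRT8 the highest, whereas CEACAM5 had a median of 0. Summed over the list, these markers gave 2901 to 7009 RPM per sample, against 22.9 to 49.5 RPM for 12 markers of immune, endothelial and stromal cells. The shScrambled line itself stood apart from Parental, with 30.7% of all genes tested under an adjusted p of 0.05. The comparisons of each knockdown line with shScrambled were therefore also computed against Parental.

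The promoters are shown first, since the same short sequence recurs in most of these genes. RefSeq windows of GRCh38.p14, from 250 bases before to 50 bases after a transcription start, were found for 9 of the 10 genes, with 11 windows in all. The κB consensus, the 10-base motif bound by NF-κB dimers, was searched on both strands and was found in 7 of these 9 genes, whereas 5.91% of all 35116 windows held it. The looser 9-base motif GGNNNTTCC, which overlaps it, was found on either strand in 8 of the 9 genes and in 20.1% of all windows. The genes were picked as chemokines and NF-κB targets, so these shares are a description and not a test. They count genes, whereas the background counts single windows. Each stretch below runs 5′ to 3′ on the gene's strand with 25 bases on either side. The capitals mark matches of the κB consensus, or of the looser motif for CXCL8. Further matches of the looser motif, at -53 in CXCL1, CXCL2 and CXCL3 and at -242 in NFKBIA, are not in capitals. Positions count from the transcription start, and negative ones lie before it. The stretches are at chr4:73869289-73869349 (plus strand) for CXCL1, chr4:74099238-74099298 (minus) for CXCL2, chr4:74038733-74038793 (minus) for CXCL3, chr4:73740453-73740511 (plus) for CXCL8, chr2:227813738-227813797 (plus) for CCL20, chr14:35404796-35404855 (minus) for NFKBIA, chr6:137867167-137867238 (plus) for TNFAIP3 and chr11:102317260-102317383 (plus) for BIRC3.
CXCL1: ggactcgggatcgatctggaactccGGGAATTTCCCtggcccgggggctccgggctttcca
CXCL2: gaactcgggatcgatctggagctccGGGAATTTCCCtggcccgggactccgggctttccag
CXCL3: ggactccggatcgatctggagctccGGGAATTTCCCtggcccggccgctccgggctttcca
CXCL8: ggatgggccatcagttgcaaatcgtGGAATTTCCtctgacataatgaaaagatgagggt
CCL20: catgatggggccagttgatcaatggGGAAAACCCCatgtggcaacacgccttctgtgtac
NFKBIA: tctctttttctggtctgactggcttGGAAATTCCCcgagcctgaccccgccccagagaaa
TNFAIP3: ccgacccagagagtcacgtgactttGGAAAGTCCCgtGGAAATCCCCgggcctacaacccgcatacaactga
BIRC3: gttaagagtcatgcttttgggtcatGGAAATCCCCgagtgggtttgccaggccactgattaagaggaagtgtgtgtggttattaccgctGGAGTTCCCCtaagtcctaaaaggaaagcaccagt

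CXCL1, CXCL2 and CXCL3 shared the 11 capital letters and most of the letters around them, with the match on both strands at adjoining positions (-79 and -78 in CXCL1 and CXCL3, -78 and -77 in CXCL2). CXCL8 held the looser motif alone, at -91. TNFAIP3 held matches at -67 and -55, and BIRC3 at -199 and -135. The windows of SQSTM1 held neither motif. A match is a description of the sequence and does not show that the factor was bound there in these cells. The CXC chemokine genes lie on the long arm of chromosome 4, at chr4:73740519-73743716 for CXCL8, chr4:73869393-73871308 for CXCL1, chr4:74036589-74038807 for CXCL3 and chr4:74097040-74099196 for CXCL2. The other genes lie at chr2:227805739-227817564 for CCL20, chr14:35401079-35404749 for NFKBIA, chr6:137867214-137883314 for TNFAIP3, chr11:102317484-102339403 for BIRC3, chr19:45001461-45038192 for RELB and chr5:179806398-179838078 for SQSTM1. CXCL2 shared 13.4% of its distinct 50-base exon sequences with another gene, CXCL3 6.01% and CXCL1 4.57%, mostly with each other, so read pairs from these stretches may have been left out or split between these 3 genes. The other 7 shared under 1%.

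Per kilobase of merged exon (RPKM), SQSTM1 was by far the most abundant of the 10 genes, with a mean of 33.9 RPKM in Parental. It was followed there by NFKBIA at 3.40, RELB at 2.92, BIRC3 at 2.26 and TNFAIP3 at 0.283 RPKM. The chemokine genes were near the bottom of the range, from 0.0137 RPKM for CCL20 to 0.116 RPKM for CXCL3. Of the 9 genes with enough counts to be tested across all 16 samples, 7 differed somewhere among the 6 lines (edgeR quasi-likelihood test, Benjamini-Hochberg adjusted over all genes), against 45.7% of all genes tested. These were CXCL1, CXCL3, CXCL8, NFKBIA, TNFAIP3, BIRC3 and RELB. CXCL2 (adjusted p = 0.128) and SQSTM1 (0.465) did not pass, and CCL20 was too low to be tested.

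The RNA of these chemokines was very low in every line, and CXCL1 and CXCL8 were highest in the knockdown lines. CXCL1, a ligand of CXCR2 that attracts neutrophils, had 5 and 8 counts in Parental, 5 and 14 in shScrambled, 36, 31 and 24 in shAjuba1 and 32, 21 and 31 in shAjuba2. It had 10, 13 and 11 counts in Control and 15, 9 and 12 in Ajuba OE. On the RPM scale the samples of both knockdown lines were above every sample of the other 4 lines and overlapped each other. The mean level was 0.815 ± 0.191 RPM (SD, n = 3) in shAjuba1 and 0.208 ± 0.0998 RPM (SD, n = 2) in shScrambled, a 3.62-fold difference that passed the test (log2 fold change 1.86 ± 0.37 (SE), edgeR adjusted p = 0.00172). With Parental as the control the log2 fold change was 2.48. In RNA from whole cultures, a higher level in all cells and a larger share of cells with the transcript cannot be told apart. The difference of shAjuba2 from shScrambled did not pass (log2 fold change 1.41 ± 0.39 (SE), edgeR adjusted p = 0.0683).

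CXCL8, also known as interleukin 8, had 8 and 9 counts in Parental, 7 and 6 in shScrambled, 18, 11 and 10 in shAjuba1 and 22, 22 and 20 in shAjuba2. It had 7, 3 and 2 counts in Control and 15, 4 and 7 in Ajuba OE. As for CXCL1, all knockdown samples were above all others on the RPM scale, and here shAjuba2 was above shAjuba1 in every sample. Neither difference from shScrambled passed, with a log2 fold change of 1.15 ± 0.44 (SE), edgeR adjusted p = 0.0554, in shAjuba1 and 1.54 ± 0.38 (SE), edgeR adjusted p = 0.0507, in shAjuba2. In the overexpression arm CXCL8 was too low to be tested.

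CXCL3, a close relative of CXCL1, had 15 and 13 counts in shScrambled, 23, 6 and 15 in shAjuba1 and 31, 48 and 41 in shAjuba2. It had 8 and 17 counts in Parental, 14, 16 and 13 in Control and 38, 25 and 20 in Ajuba OE. In RPM, shAjuba2 was above all other samples, Ajuba OE came next without overlapping any other line, and shAjuba1 overlapped Parental, shScrambled and Control. The difference from control did not pass in shAjuba2 (log2 fold change 1.35 ± 0.36 (SE), edgeR adjusted p = 0.0660), in shAjuba1 (0.21 ± 0.41 (SE), edgeR adjusted p = 0.719) or in Ajuba OE (0.68 ± 0.24 (SE), edgeR adjusted p = 0.183).

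CXCL2, the third of these CXCR2 ligands, had between 2 and 19 counts in any sample, with its lowest mean in Ajuba OE (0.102 ± 0.0444 RPM (SD, n = 3)) and its highest in shAjuba2 (0.339 ± 0.0829 RPM (SD, n = 3)). Of the 3 comparisons with a control, that of Ajuba OE was the one without overlap, and it did not pass (log2 fold change -1.02 ± 0.39 (SE), edgeR adjusted p = 0.208). CCL20, the ligand of CCR6 that draws in Th17 cells and immature dendritic cells, had 0 and 0 counts in shScrambled, 3, 1 and 8 in shAjuba1 and 1, 1 and 2 in shAjuba2. It had 1 and 1 counts in Parental, 0, 1 and 0 in Control and 10, 2 and 3 in Ajuba OE. The 4 samples without a count allow a level of up to 0.0596 to 0.0874 RPM (3 counts of the sample's total, covering counting error only). Of the samples with counts, shAjuba1 replicate 3 and Ajuba OE replicate 1 were above this range. CCL20 was below the filter on low counts in every comparison of 2 lines. Without that filter it was called in shAjuba1 (edgeR adjusted p = 0.0185) and not in Ajuba OE (0.164) or shAjuba2 (0.4997). Summed over these 5 chemokine genes, shAjuba2 samples had 2.18 to 2.43 RPM and shAjuba1 samples 1.82 to 2.09 RPM, whereas the other 10 samples had 0.623 to 1.25 RPM.

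**Figure D1:**
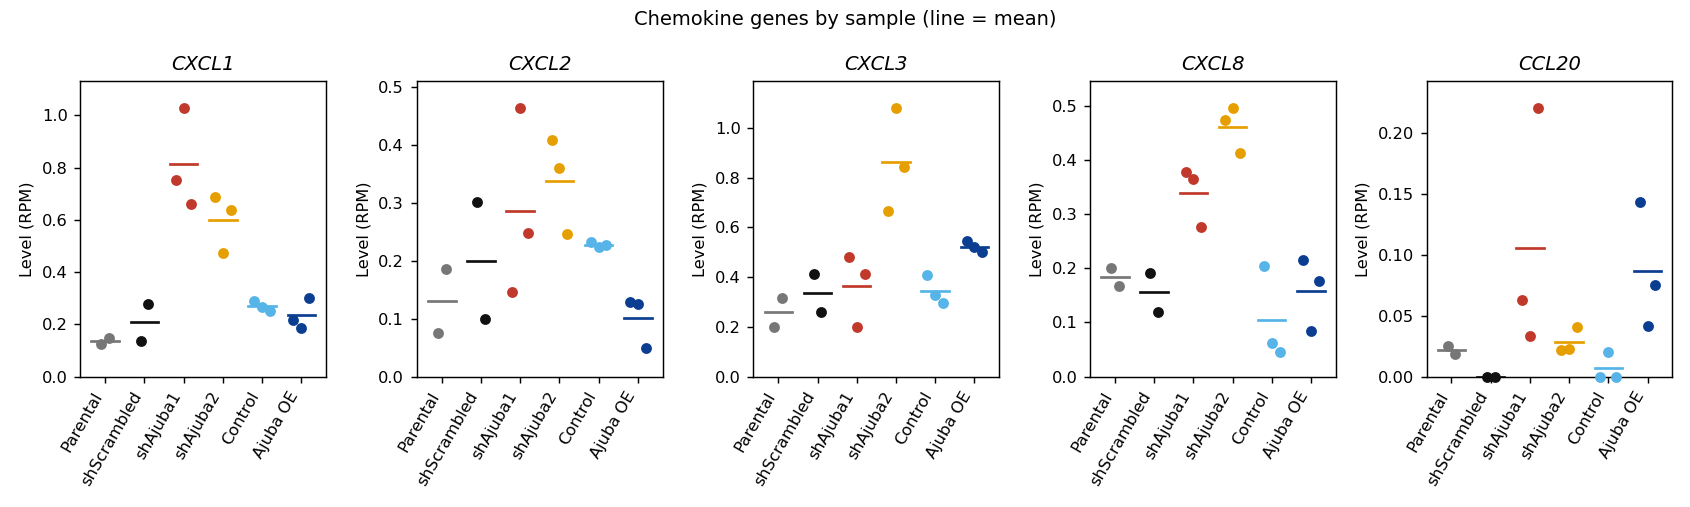
Levels of the 5 chemokine genes in RPM (vertical axes, linear from 0) in each sample of the 6 lines, with a point per sample and a horizontal line at the mean of the line. CXCL1 and CXCL8 are higher in all samples of both knockdown lines than in any other sample, CXCL3 is highest in shAjuba2, and CXCL2 and CCL20 overlap between most lines.

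The feedback regulators and RELB followed another order. They were highest in shAjuba1 or Ajuba OE, whereas shAjuba2 stayed near the control lines. TNFAIP3 encodes A20, a ubiquitin-editing enzyme that shuts down signalling to the IκB kinases. Its level was 2.05 and 1.61 RPM in Parental and 2.41 and 2.13 RPM in shScrambled. It was 9.46, 8.30 and 9.96 RPM in shAjuba1 and 2.69, 3.87 and 2.63 RPM in shAjuba2. In the overexpression arm it was 2.27, 2.63 and 2.41 RPM in Control and 4.45, 4.61 and 4.73 RPM in Ajuba OE. Neither shAjuba1 nor Ajuba OE overlapped with any other line, and shAjuba1 was the higher of these lines. TNFAIP3 rose 4.05-fold in shAjuba1 (log2 fold change 2.02 ± 0.14 (SE), edgeR adjusted p = 4.12e-07), the largest fold change of the 9 genes tested in that line. It rose 1.96-fold in Ajuba OE (0.97 ± 0.13 (SE), edgeR adjusted p = 0.00594), a call that was lost without Control replicate 3 (adjusted p = 0.0512). In shAjuba2 the difference did not pass (0.39 ± 0.24 (SE), edgeR adjusted p = 0.347).

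RELB encodes the NF-κB subunit of the non-canonical branch and is itself an NF-κB target. Its level was 8.85 and 8.64 RPM in Parental and 9.88 and 11.3 RPM in shScrambled. It was 22.6, 18.4 and 23.2 RPM in shAjuba1 and 9.87, 8.06 and 12.2 RPM in shAjuba2. In the overexpression arm it was 8.07, 8.65 and 7.99 RPM in Control and 15.0, 13.7 and 18.3 RPM in Ajuba OE. All samples of shAjuba1 were above all samples of Ajuba OE, which in turn were above those of the remaining 4 lines. RELB rose 2.01-fold in shAjuba1 (log2 fold change 1.00 ± 0.12 (SE), edgeR adjusted p = 3.95e-05) and 1.98-fold in Ajuba OE (0.99 ± 0.13 (SE), edgeR adjusted p = 0.00557), each against its own control. In shAjuba2 the log2 fold change was -0.12 ± 0.19 (SE), edgeR adjusted p = 0.725.

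BIRC3 encodes cIAP2, a ubiquitin ligase that acts with TRAF2 in signalling from TNF receptors and that, with its relative cIAP1, keeps NIK low. Its level was 18.8 and 15.0 RPM in Parental and 18.0 and 21.6 RPM in shScrambled. It was 42.3, 44.7 and 31.7 RPM in shAjuba1 and 13.5, 17.1 and 20.7 RPM in shAjuba2. In the overexpression arm it was 27.3, 17.6 and 17.1 RPM in Control and 39.5, 23.5 and 70.4 RPM in Ajuba OE. The Ajuba OE samples were spread more widely than those of any other line, and the lowest of them was below the highest Control sample. BIRC3 rose 1.97-fold in shAjuba1 (log2 fold change 0.98 ± 0.14 (SE), edgeR adjusted p = 1.84e-04), a call that was lost in the joint fit of all 16 samples (adjusted p = 0.0530). Its difference in Ajuba OE did not pass (1.17 ± 0.38 (SE), edgeR adjusted p = 0.146), but passed in 6 of 15 other settings, among them without Ajuba OE replicate 2. In shAjuba2 the log2 fold change was -0.26 ± 0.20 (SE), edgeR adjusted p = 0.451.

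NFKBIA encodes IκBα, the inhibitor that holds canonical NF-κB dimers in the cytoplasm and is made anew when they are active. Its level was 11.2 and 11.9 RPM in Parental and 12.8 and 13.2 RPM in shScrambled. It was 20.1, 19.5 and 23.7 RPM in shAjuba1 and 12.4, 10.1 and 16.7 RPM in shAjuba2. In the overexpression arm it was 9.58, 17.5 and 15.9 RPM in Control and 23.3, 14.5 and 20.2 RPM in Ajuba OE. Only shAjuba1 was separate from the control of its arm, and it overlapped Ajuba OE. NFKBIA rose 1.60-fold in shAjuba1 (log2 fold change 0.68 ± 0.11 (SE), edgeR adjusted p = 3.48e-04). The differences in Ajuba OE (0.49 ± 0.24 (SE), edgeR adjusted p = 0.337) and shAjuba2 (-0.04 ± 0.21 (SE), edgeR adjusted p = 0.921) did not pass.

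**Figure D2:**
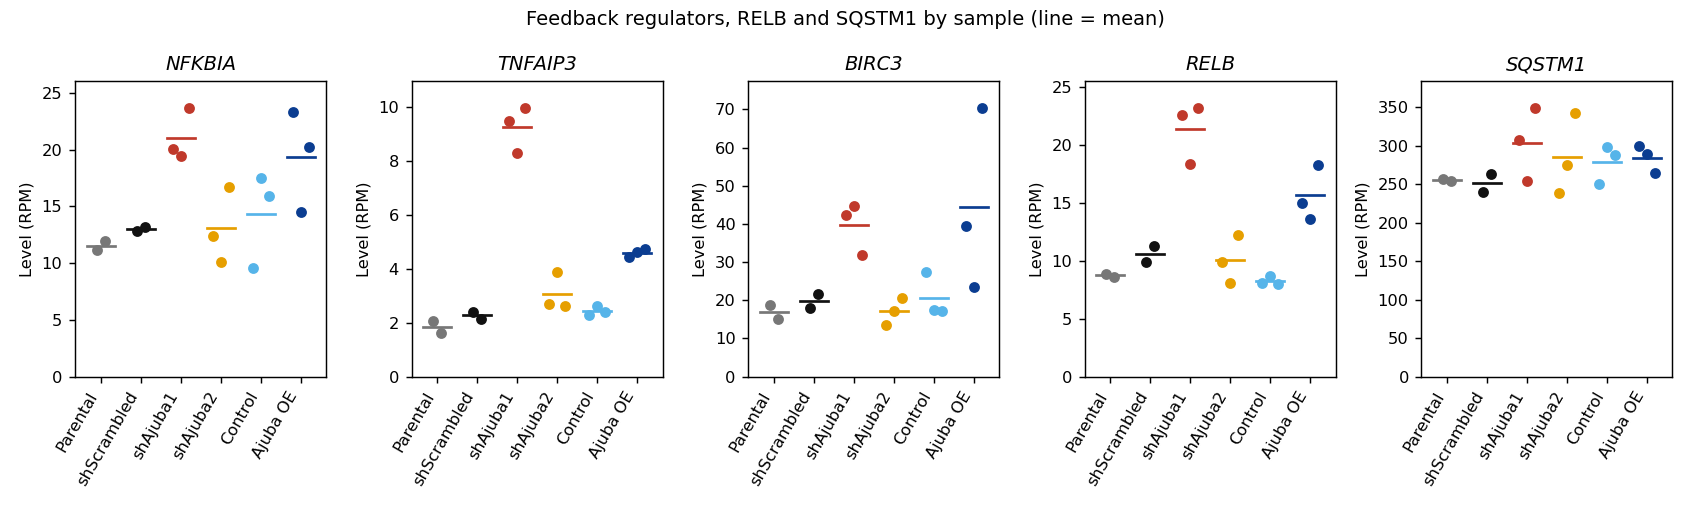
Levels of NFKBIA, TNFAIP3, BIRC3, RELB and SQSTM1 in RPM (vertical axes, linear from 0) in each sample of the 6 lines, with a point per sample and a horizontal line at the mean of the line. TNFAIP3 and RELB are highest in shAjuba1 and next highest in Ajuba OE without overlap with the other 4 lines, BIRC3 is widely spread in Ajuba OE, and SQSTM1 overlaps between the lines.

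SQSTM1 encodes p62, which also carries ubiquitinated cargo into autophagosomes and holds KEAP1 away from the antioxidant factor NRF2. It did not pass the test in any comparison. Its level was 257 and 254 RPM in Parental and 239 and 263 RPM in shScrambled. It was 307, 254 and 349 RPM in shAjuba1 and 238, 274 and 342 RPM in shAjuba2. In the overexpression arm it was 250, 298 and 288 RPM in Control and 299, 288 and 264 RPM in Ajuba OE. Each knockdown line and Ajuba OE overlapped with its control. The log2 fold change was 0.26 ± 0.11 (SE), edgeR adjusted p = 0.0899, in shAjuba1, 0.13 ± 0.18 (SE), edgeR adjusted p = 0.671, in shAjuba2, and 0.09 ± 0.11 (SE), edgeR adjusted p = 0.716, in Ajuba OE. The difference in shAjuba1 passed in 3 of 14 other settings, among them without shAjuba1 replicate 2, at a log2 fold change of 0.37 (adjusted p = 0.0114). SQSTM1 overlaps MGAT4B and MRNIP on the opposite strand, which had 4060 to 11583 and 2667 to 7215 counts per sample, and TNFAIP3 overlaps the antisense RNA WAKMAR2, which had 6 to 35 counts. The strand setting of the counting is not given in the sources used here, so reads of these partners cannot be told apart from those of SQSTM1 and TNFAIP3 if strand was not used.

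Counted by comparison, 5 of 9 genes tested rose and none fell in shAjuba1, against 18.2% of all genes tested that rose, 20.2% that fell and 38.4% in either direction. The 5 were CXCL1, NFKBIA, TNFAIP3, BIRC3 and RELB. The median log2 fold change over the 9 genes was 0.98, beside -0.01 over all genes tested. The same 5 genes passed with Parental as the control, where 8 of the 10 could be tested. With a log2 fold change of at least 1 required as well, 3 remained, CXCL1, TNFAIP3 and RELB. With every gene of at least 1 count tested, 7 of 10 passed, CCL20 and SQSTM1 in addition, and in the joint fit of all 16 samples 4 of 9 passed, without BIRC3.

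In shAjuba2 edgeR called 0 of 9 genes, against 3.19% of all genes tested that rose, 4.44% that fell and 7.63% in either direction. CXCL1, CXCL3 and CXCL8 made up the 3 genes with an unadjusted p under 0.05, and DESeq2 called 0 of 9. The median log2 fold change was 0.39, beside -0.01 over all genes tested. The count depended on the samples and on the model. Without shAjuba2 replicate 2, CXCL1, CXCL3 and CXCL8 rose, and they also did so when all 16 samples were fitted together. With the replicate number as a block, these 3 genes rose and BIRC3 fell. CXCL1 and CXCL3 rose with Parental as the control.

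In Ajuba OE 2 of 8 genes tested, TNFAIP3 and RELB, rose and none fell, against 2.39% of all genes tested that rose, 3.03% that fell and 5.43% in either direction. The median log2 fold change was 0.59, beside -0.01 over all genes tested. Without Control replicate 3 only RELB was called. With replicate 2 left out of both lines, 4 of 7 genes rose, NFKBIA, TNFAIP3, BIRC3 and RELB. Both log2 fold changes of the 2 called genes were just under 1, so that none was left when a change of at least 1 was required.

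**Figure D3:**
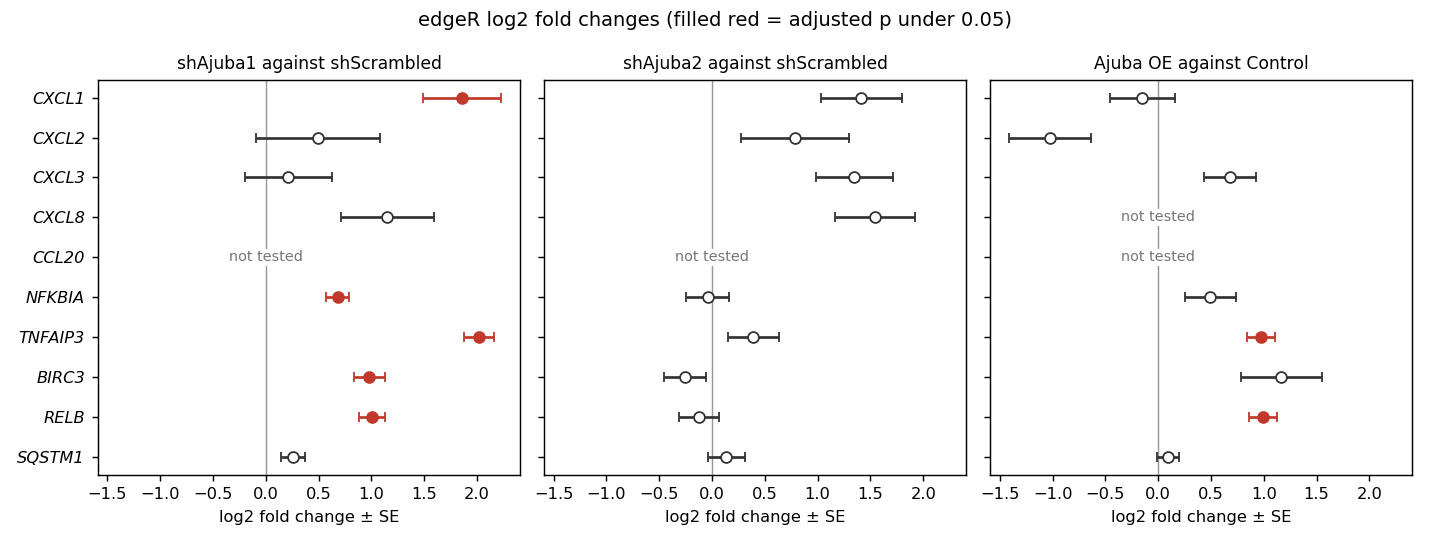
edgeR log2 fold changes (horizontal axes, bars ± SE) of the 10 genes in shAjuba1 and shAjuba2 against shScrambled and in Ajuba OE against Control, filled red where the adjusted p-value was under 0.05. CXCL1, NFKBIA, TNFAIP3, BIRC3 and RELB are filled in shAjuba1, none is filled in shAjuba2, and TNFAIP3 and RELB are filled in Ajuba OE.

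The knockdown lines share the shScrambled control, so they were compared with each other directly. Of 9 genes tested, 4 were higher in shAjuba1 than in shAjuba2 and 1 was lower, against 9.47% of all genes tested that were higher, 10.1% that were lower and 19.6% in either direction. TNFAIP3 (log2 fold change 1.64 ± 0.18 (SE), edgeR adjusted p = 3.77e-04), BIRC3 (1.26 ± 0.19 (SE), edgeR adjusted p = 0.00166), RELB (1.14 ± 0.17 (SE), edgeR adjusted p = 0.00148) and NFKBIA (0.74 ± 0.18 (SE), edgeR adjusted p = 0.0181) were higher in shAjuba1. CXCL3 was lower (-1.13 ± 0.33 (SE), edgeR adjusted p = 0.0389). Without shAjuba1 replicate 1 or without shAjuba1 replicate 3, the calls of NFKBIA and CXCL3 were lost, leaving 3. Over all 6 fits with 1 sample left out, the call of NFKBIA was lost in 3 (adjusted p up to 0.0826) and that of CXCL3 in 5 (adjusted p up to 0.123), with CXCL3 also lost under the replicate block (adjusted p = 0.0850). The difference of CXCL1 between the knockdown lines was 0.47 ± 0.26 (SE), edgeR adjusted p = 0.237, and that of CXCL8 was -0.38 ± 0.28 (SE), edgeR adjusted p = 0.366.

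TNFAIP3 and RELB rose both where AJUBA was lowered by shAjuba1 and where it was raised, and the effects of shAjuba1 and Ajuba OE, each against its own control, were therefore compared in a model of all 16 samples. This test was added after the values had been seen, and it was not computed with Parental in place of shScrambled. Of 9 genes tested, 2 had a larger effect in shAjuba1, against 15.4% of all genes tested that differed in either direction. They were CXCL1 (difference in log2 fold change 2.02 ± 0.47 (SE), edgeR adjusted p = 0.00751) and TNFAIP3 (1.04 ± 0.24 (SE), edgeR adjusted p = 0.00823). For RELB the difference was 0.02 ± 0.21 (SE), with an adjusted p of 0.975, and for BIRC3 it was -0.18 ± 0.46 (SE), with an adjusted p of 0.851.

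**Figure D4:**
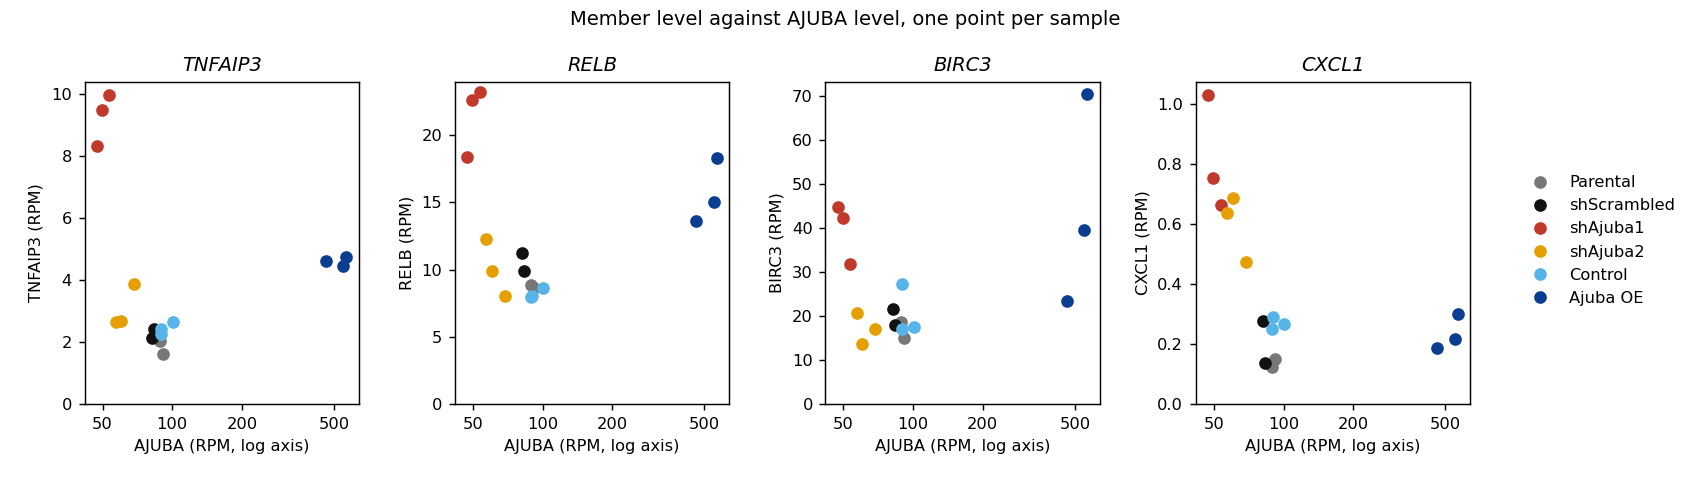
Levels of TNFAIP3, RELB, BIRC3 and CXCL1 in RPM (vertical axes, linear from 0) against the level of AJUBA in RPM (horizontal axes, log scale), with a point per sample coloured by line. TNFAIP3 and RELB are lowest near the AJUBA level of the control lines and higher at both ends, with shAjuba2 near the controls, whereas CXCL1 is higher in both knockdown lines and not in Ajuba OE.

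The control lines were compared with Parental to see what they themselves differed by. Of 6 genes tested between shScrambled and Parental, edgeR called 0, while 30.7% of all genes tested differed. Unadjusted p-values were under 0.05 for 2 of them, BIRC3 and RELB, and DESeq2 called 0 of 5. Without Parental replicate 1, BIRC3 rose in shScrambled and was the 1 gene called of 8. Between Control and Parental edgeR called 0 of 8 genes, while 0.370% of all genes tested differed. Here 2 genes, CXCL1 and TNFAIP3, had an unadjusted p under 0.05, and DESeq2 called 0 of 8.

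The rest of the pathway was read from lists of genes with known roles, which hold none of the 10 genes. Their counts stand beside 38.4% of all genes tested that were called in either direction in shAjuba1, while shAjuba2 had 7.63% and Ajuba OE 5.43%. Among the other NF-κB subunits, NFKB2, the precursor of p52 and partner of RELB, rose in shAjuba1 from 30.9 ± 2.91 RPM (SD, n = 2) to 108 ± 11.99 RPM (SD, n = 3) (log2 fold change 1.78 ± 0.11 (SE), edgeR adjusted p = 1.03e-07). It also rose in Ajuba OE (0.60 ± 0.13 (SE), edgeR adjusted p = 0.0422) and did not pass in shAjuba2 (0.57 ± 0.14 (SE), edgeR adjusted p = 0.0569). NFKB1, the precursor of p50, rose in Ajuba OE (0.49 ± 0.10 (SE), edgeR adjusted p = 0.0386) and did not pass in shAjuba1 (0.20 ± 0.09 (SE), edgeR adjusted p = 0.0908) or shAjuba2 (0.10 ± 0.13 (SE), edgeR adjusted p = 0.671). In Ajuba OE the calls of NFKB2 and of NFKB1 were each lost in 5 of 6 fits with 1 sample left out (adjusted p up to 0.202 and 0.160), and that of NFKB1 also with Parental as the control (adjusted p = 0.300). REL fell in shAjuba1 (-0.65 ± 0.12 (SE), edgeR adjusted p = 0.00121), a call that was lost with Parental as the control (adjusted p = 0.165). RELA, the transactivating subunit of the canonical dimer, did not pass in shAjuba1 (0.21 ± 0.09 (SE), edgeR adjusted p = 0.0807), shAjuba2 (0.34 ± 0.12 (SE), edgeR adjusted p = 0.129) or Ajuba OE (0.04 ± 0.12 (SE), edgeR adjusted p = 0.904). In shAjuba2 edgeR called 0 of these 4 subunits, with 3 at an unadjusted p under 0.05, and DESeq2 called 1.

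Of 5 further IκB proteins, 3 rose in shAjuba1. They were NFKBIE (1.32 ± 0.12 (SE), edgeR adjusted p = 3.47e-06), NFKBIB (0.63 ± 0.10 (SE), edgeR adjusted p = 3.74e-04) and BCL3 (1.12 ± 0.18 (SE), edgeR adjusted p = 3.79e-04), the last a nuclear IκB protein that binds p50 and p52. With Parental as the control their log2 fold changes were 1.29, 0.28 and 1.43, and all 3 were still called. NFKBIZ did not rise in shAjuba1 (log2 fold change -0.09) and was not called. It stood at 5.01 ± 0.483 RPM (SD, n = 2) in shScrambled, 4.78 ± 0.766 RPM (SD, n = 3) in shAjuba1 and 8.32 ± 2.14 RPM (SD, n = 3) in shAjuba2. Between the knockdown lines it was called lower in shAjuba1, a call lost in 4 of 6 fits with 1 sample left out (edgeR adjusted p up to 0.129). In shAjuba2 edgeR called 0 of the 5, with 3 at an unadjusted p under 0.05, and DESeq2 called 0. In Ajuba OE the counts were 0, 1 and 1. With Parental as the control, BCL3 (log2 fold change 0.97, edgeR adjusted p = 0.0285) and NFKBIZ (1.03, edgeR adjusted p = 0.0438) rose in shAjuba2. NFKBIE (0.40) and NFKBIB (-0.24) were not called there. Of 11 IκB kinases and kinases upstream of them, 3 rose and 1 fell in shAjuba1, a share near that of all genes. MAP3K14, which encodes NIK, went from 27.3 ± 0.255 RPM (SD, n = 2) to 47.5 ± 2.58 RPM (SD, n = 3) (log2 fold change 0.78 ± 0.09 (SE), edgeR adjusted p = 2.22e-05). MAP3K8 (0.58 ± 0.11 (SE), edgeR adjusted p = 9.48e-04) and IKBKE (0.34 ± 0.09 (SE), edgeR adjusted p = 0.00904) also rose and TAB3 fell (-0.52 ± 0.09 (SE), edgeR adjusted p = 4.90e-04). The call of IKBKE was lost without either shScrambled replicate (adjusted p up to 0.102). With Parental as the control the log2 fold changes were 0.43 for MAP3K14, 0.32 for MAP3K8, 0.53 for IKBKE and -0.47 for TAB3, all called. MAP3K14 stood at 34.6 ± 2.51 RPM (SD, n = 2) in Parental. In Control it stood at 43.0 ± 3.52 RPM (SD, n = 3), where the samples overlapped those of shAjuba1. In shAjuba2 edgeR called 0 of the 11 kinases, with 3 at an unadjusted p under 0.05, and DESeq2 called 1. In Ajuba OE the counts were 0, 1 and 0.

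Of 19 adaptors and ubiquitin enzymes, 6 rose and 2 fell in shAjuba1, a share near that of all genes, and 1 fell in shAjuba2. In Ajuba OE edgeR called 0, with 3 at an unadjusted p under 0.05, and DESeq2 called 2. TRAF1, an adaptor induced by NF-κB, rose in shAjuba1 (1.26 ± 0.12 (SE), edgeR adjusted p = 4.61e-06), as did TRAF2 (0.76 ± 0.09 (SE), edgeR adjusted p = 2.85e-05) and RBCK1 (0.33 ± 0.08 (SE), edgeR adjusted p = 0.00744), whereas IRAK4 fell (-0.76 ± 0.11 (SE), edgeR adjusted p = 1.88e-04). The call of RBCK1 was lost without shScrambled replicate 1 (adjusted p = 0.0846). The gene that fell in shAjuba2 was TAX1BP1, an adaptor of A20. Of 5 genes around p62 and Ajuba, NBR1 (-0.35 ± 0.08 (SE), edgeR adjusted p = 0.00308) and PRKCI (-0.32 ± 0.10 (SE), edgeR adjusted p = 0.0190) fell in shAjuba1. Without shScrambled replicate 1 both calls were lost (adjusted p = 0.0748 and 0.176), and that of PRKCI was also lost without shScrambled replicate 2. In shAjuba2 edgeR called 0 of the 5, with 3 at an unadjusted p under 0.05, and DESeq2 called 1. In Ajuba OE the counts were 0, 1 and 0. TRAF6, the ubiquitin ligase that p62 binds, did not pass in shAjuba1 (0.19 ± 0.09 (SE), edgeR adjusted p = 0.113), shAjuba2 (0.31 ± 0.12 (SE), edgeR adjusted p = 0.155) or Ajuba OE (-0.32 ± 0.09 (SE), edgeR adjusted p = 0.100). The Ajuba OE samples, at 24.2 to 27.5 RPM, were nevertheless below all samples of the other lines. With Parental as the control TRAF6 passed in Ajuba OE (log2 fold change -0.44, edgeR adjusted p = 0.0462). PRKCZ, the other atypical protein kinase C gene, did not pass in shAjuba1 (0.31 ± 0.12 (SE), edgeR adjusted p = 0.0586), shAjuba2 (0.10 ± 0.12 (SE), edgeR adjusted p = 0.648) or Ajuba OE (-0.07 ± 0.11 (SE), edgeR adjusted p = 0.811).

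Of 13 receptors tested in shAjuba1, 1 rose and 2 fell, a share below that of all genes. TLR4, the receptor for lipopolysaccharide, fell in shAjuba1 from 89.6 ± 6.06 RPM (SD, n = 2) to 12.6 ± 1.29 RPM (SD, n = 3) (log2 fold change -2.85 ± 0.11 (SE), edgeR adjusted p = 3.47e-09) and was the 1 receptor of 13 that fell in shAjuba2 (-1.18 ± 0.14 (SE), edgeR adjusted p = 0.00385). Its level was 40.9 ± 5.74 RPM (SD, n = 3) in shAjuba2 and 43.2 ± 1.14 RPM (SD, n = 2) in Parental. With Parental as the control the call in shAjuba2 was lost (log2 fold change -0.14, adjusted p = 0.501) and the log2 fold change in shAjuba1 was -1.81. TNFRSF1B, the type 2 receptor for TNF, rose in shAjuba1 (0.76 ± 0.09 (SE), edgeR adjusted p = 3.03e-05) and in Ajuba OE (0.79 ± 0.08 (SE), edgeR adjusted p = 0.00205). With Parental as the control these log2 fold changes were 0.31 and 0.53, both still called. IL1RAP fell in shAjuba1 (-1.72 ± 0.23 (SE), edgeR adjusted p = 7.99e-05), by 1.03 on the log2 scale with Parental as the control. In Ajuba OE 3 of 12 receptors rose, TNFRSF1B, TLR2 and CD40 (1.59 ± 0.33 (SE), edgeR adjusted p = 0.0365), and none fell. The call of TLR4 in shAjuba2 was lost without shScrambled replicate 1 (adjusted p = 0.0593), and that of CD40 in Ajuba OE was lost whichever of the 6 samples was left out (adjusted p up to 0.129) and with Parental as the control (0.288).

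Of 32 other NF-κB targets tested in shAjuba1, 19 rose and 8 fell, with a median log2 fold change of 0.38. In shAjuba2 3 of 31 rose and 2 fell, with a median of -0.04, and in Ajuba OE 5 of 31 rose and 1 fell, with a median of 0.26. MMP9, a matrix metalloproteinase, rose in shAjuba1 (3.38 ± 0.24 (SE), edgeR adjusted p = 4.10e-07) and in Ajuba OE (1.97 ± 0.31 (SE), edgeR adjusted p = 0.0115) from levels under 1 RPM. CSF1, a growth factor of macrophages, rose in shAjuba1 (2.19 ± 0.16 (SE), edgeR adjusted p = 6.13e-07). PLAU, the urokinase gene, fell in shAjuba1 (-1.22 ± 0.10 (SE), edgeR adjusted p = 1.63e-06) and in shAjuba2 (-1.13 ± 0.19 (SE), edgeR adjusted p = 0.0145), but it rose in both with Parental as the control, by 0.85 and 0.94 on the log2 scale. The call in shAjuba2 was also lost without either shScrambled replicate (adjusted p up to 0.127). Its level was 19.8 ± 0.530 RPM (SD, n = 2) in shScrambled and 4.67 ± 0.0461 RPM (SD, n = 2) in Parental. Some genes of this list, NFKB2 and TRAF1 among them, stand on the lists above too.

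Of 6 other chemokines tested in shAjuba1, 4 rose and 1 fell. CX3CL1, the membrane-bound chemokine fractalkine, rose in shAjuba1 (1.92 ± 0.12 (SE), edgeR adjusted p = 1.83e-07) and fell in shAjuba2 (-1.36 ± 0.18 (SE), edgeR adjusted p = 0.00663), where 2 of 8 fell and none rose. Its level was 3.43 ± 0.269 RPM (SD, n = 2) in shScrambled, 1.93 ± 0.438 RPM (SD, n = 2) in Parental and 1.37 ± 0.140 RPM (SD, n = 3) in shAjuba2. With Parental as the control the call in shAjuba2 was lost (log2 fold change -0.56, adjusted p = 0.133) and the log2 fold change in shAjuba1 was 2.71. CXCL16 rose in shAjuba1 (0.80 ± 0.12 (SE), edgeR adjusted p = 1.99e-04) and in Ajuba OE (0.59 ± 0.10 (SE), edgeR adjusted p = 0.0196), where 3 of 6 rose and 1 fell. CXCL14 rose in shAjuba1 (0.83 ± 0.13 (SE), edgeR adjusted p = 2.77e-04) but was lower with Parental as the control (-0.48), and it fell in Ajuba OE (-2.33 ± 0.18 (SE), edgeR adjusted p = 5.77e-04). CCL24 rose in Ajuba OE (1.77 ± 0.14 (SE), edgeR adjusted p = 6.05e-04). With Parental as the control the log2 fold changes in Ajuba OE were -3.22 for CXCL14 and 2.38 for CCL24. The call of CX3CL1 in shAjuba2 was lost without either shScrambled replicate (adjusted p up to 0.0876), and that of CXCL16 in Ajuba OE in 5 of 6 fits with 1 sample left out (adjusted p up to 0.0843). None of the 4 receptors listed for the chemokines among the 10 genes, CXCR1, CXCR2, CCR6 and ACKR1, passed the filter on low counts. Receptors specific to the other chemokines named above were not on this list.

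Among the pathways that p62 joins to NF-κB, 2 of 14 NRF2 targets rose and 6 fell in shAjuba1, with none rising and 2 falling both in shAjuba2 and in Ajuba OE. HMOX1, which encodes heme oxygenase 1, rose in shAjuba1 (1.47 ± 0.14 (SE), edgeR adjusted p = 4.19e-06; 0.82 with Parental as the control), whereas the cystine transporter gene SLC7A11 (-1.53 ± 0.14 (SE), edgeR adjusted p = 3.30e-06), NQO1 (-0.62 ± 0.11 (SE), edgeR adjusted p = 6.15e-04) and TALDO1 (-0.45 ± 0.07 (SE), edgeR adjusted p = 4.18e-04) fell. SLC7A11 also fell in Ajuba OE (-0.80 ± 0.17 (SE), edgeR adjusted p = 0.0404), a call that was lost in 5 of 6 fits with 1 sample left out (adjusted p up to 0.161). Of 9 autophagy receptors and proteins of the ATG8 family, 1 rose and 6 fell in shAjuba1, and 1 fell in each of shAjuba2 and Ajuba OE. The gene that fell in shAjuba2 was TAX1BP1. It and NBR1 are among the 6 that fell in shAjuba1 and stand on the lists above too. MAP1LC3B (-0.81 ± 0.09 (SE), edgeR adjusted p = 1.29e-05) and GABARAPL2 (-0.46 ± 0.09 (SE), edgeR adjusted p = 0.00194) fell in shAjuba1, whereas GABARAPL1 rose there (0.40 ± 0.08 (SE), edgeR adjusted p = 0.00211) and fell in Ajuba OE (-1.61 ± 0.09 (SE), edgeR adjusted p = 1.53e-04; -2.26 with Parental as the control).

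**Figure D5:**
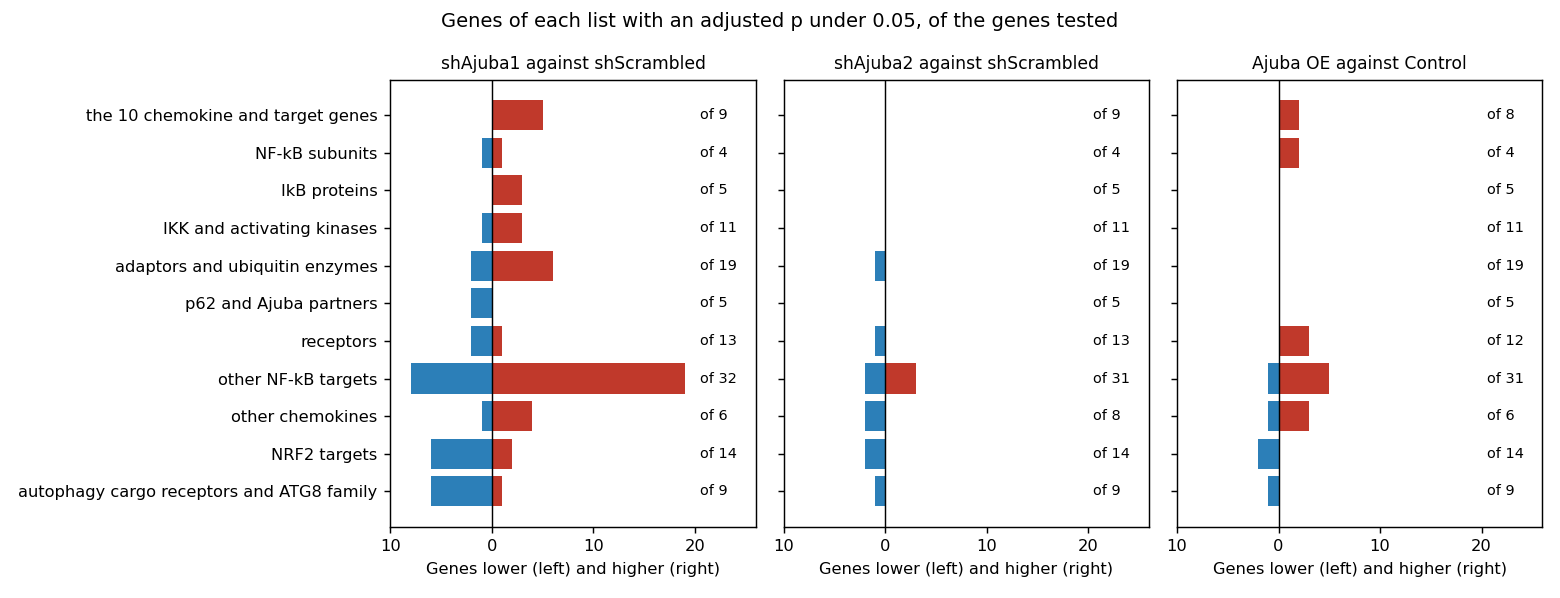
Number of genes in each list with an edgeR adjusted p-value under 0.05 in shAjuba1 and shAjuba2 against shScrambled and in Ajuba OE against Control, higher to the right in red and lower to the left in blue, with the number tested beside each bar. The 10 genes described here have 5 of 9, 0 of 9 and 2 of 8 higher, and the other NF-κB targets have 19 higher and 8 lower of 32 in shAjuba1.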

How the data were processed

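The deposited table holds the authors' raw counts, with 1 column for each of the 16 samples and no normalization. They prepared stranded mRNA libraries with paired reads of 50 bp, aligned them to hg38 with HISAT2 and counted them with featureCounts. The strand option, the annotation release and the tool versions are not given in the sources used here. Parental and shScrambled have 2 samples each here, although the series is described as triplicates. Symbols, positions and exon lengths were taken from GENCODE v44, where 56434 of 66023 genes, with 99.8% of the counts, were found by identifier. RPM used the total of all counts in a sample, and RPKM also the merged exon length.

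Samples were grouped by line as the labels give them. Each pair of lines was fitted on its own with edgeR 4.0.16 in R 4.3.3, after filterByExpr and TMM normalization, using the two-sided quasi-likelihood test. P-values were adjusted over all genes tested (Benjamini-Hochberg), and a gene was called under 0.05. The SE of a log2 fold change was derived from the F statistic of its test. The procedure was tested on simulated data. Figures were drawn with matplotlib 3.10.9. The study's methods used DESeq2, which was run here (version 1.42.0) as an alternative. The other alternatives were library size alone, DESeq2's size factors, a joint fit of all samples, other count filters, a fold change minimum, Parental as the control, samples left out and the replicate number as a block. The last is not treated as a pairing, since nothing says that same-numbered samples were processed together, and the correlation of their deviations from the line means ranged from -0.0632 to 0.0528 for shAjuba1, from 0.069 to 0.188 for shAjuba2 and from -0.0492 to 0.505 for Ajuba OE, each with its control.

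The 10 genes, the pathway lists and the tests were chosen with earlier results of these data known. Outside the cell type markers, up to 4 genes of each list were named, those with the smallest adjusted p-values in the study's 3 comparisons. TRAF6, PRKCZ, PRKCI, NFKB1, NFKB2 and RELA were always named, and genes named in addition were chosen after their values were seen. Of the cell type markers only KRT8, CEACAM5, CDH1 and KRT18 were named. SOD2, on the list of other targets, was not analysed here. Sequences are RefSeq's for GRCh38.p14. Depth limits the chemokines, with at most 48 counts per sample, and hardly touches the other 5 genes.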

Additional observations from a re-analysis of the deposited data

Results flagged for a closer look

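For 5 of 9 genes tested, against 19.6% of all genes tested, the effects of the 2 shRNAs against AJUBA differed by a test of the difference itself, the direct comparison of shAjuba1 with shAjuba2 (edgeR, adjusted over all genes). The log2 difference was 1.64 ± 0.18 (SE) for TNFAIP3, 1.26 ± 0.19 (SE) for BIRC3, 1.14 ± 0.17 (SE) for RELB and 0.74 ± 0.18 (SE) for NFKBIA, all higher in shAjuba1. It was -1.13 ± 0.33 (SE) for CXCL3, which was higher in shAjuba2. With 1 sample left out, the call of CXCL3 was lost in 5 of 6 fits (adjusted p up to 0.123) and that of NFKBIA in 3 of 6 (up to 0.0826). AJUBA itself was lower in shAjuba1 (50.1 ± 3.12 RPM (SD, n = 3)) than in shAjuba2 (62.02 ± 5.93 RPM (SD, n = 3)), and the part of this in the result was not tested.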

How the results depend on the processing

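Over settings that gave a log2 fold change for the 10 genes, 626 of 690 values kept their direction and their side of the threshold. Of the rest, 12 lost a call, 31 gained one and 21 changed sign without a call in either setting. None changed from a call in one direction to a call in the other. These values leave out the fold change minimum and the test among all 6 lines. That minimum also ended the calls of NFKBIA and BIRC3 in shAjuba1 and of TNFAIP3 and RELB in Ajuba OE. Between the knockdown lines it ended that of NFKBIA. Of 9 genes tested in shAjuba1, 5 were called, with 3 at a log2 fold change of at least 1 and 7 of 10 with every gene of at least 1 count. In shAjuba2, with 0 called, 1 was called with library size alone, with DESeq2's size factors and with replicate 2 left out of both lines, 2 with Parental as the control, 3 in the joint fit of all 16 samples and with every gene of at least 1 count, and 4 with the replicate block. Leaving out 1 sample gave 0 to 3 there, with 3 without shAjuba2 replicate 2. In Ajuba OE, with 2 called, 0 were with a log2 fold change of at least 1, 4 with replicate 2 left out of both lines, 3 with the replicate block, and 1 to 3 with 1 sample left out. Between shAjuba1 and shAjuba2, with 5 called, leaving out 1 sample gave 3 to 4, and between shScrambled and Parental 0 to 1. Among all 6 lines 4 were called of the 5 that have a minimum of 10 counts in each sample, since this filter removes the chemokines. The replicate block moved the count from 5 to 6 in shAjuba1 and from 5 to 4 between shAjuba1 and shAjuba2.

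With Parental as the control the direction turned for PLAU in shAjuba1 (0.85) and shAjuba2 (0.94), and in shAjuba1 for CXCL14 (-0.48), CDH1 (-0.79) and KRT18 (-0.27). Against shScrambled the log2 fold change in shAjuba1 was 0.73 for CDH1 and 0.44 for KRT18, both called. BIRC3 in shAjuba1 was not called in the joint fit of all samples (adjusted p = 0.0530). CXCL3 between the knockdown lines lost its call in 7 of 13 settings and NFKBIA in 3 of 14. The cause of these changes was not tested. Leaving out replicate 2 of both lines was not possible for shScrambled against Parental, where 1 sample a line remained.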

Other observations

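The genes most like each of the better counted genes were ranked by Pearson's r of log2 CPM over the 16 samples, among 15644 genes that have a minimum of 10 counts in each sample. These values are a description, since the points share lines and libraries. For TNFAIP3 they were PRDM16 (r = 0.952), NFKB2 (0.949) and SALL4 (0.94), and for RELB they were LTB (0.964), IL27RA (0.956) and DGAT2 (0.955). LTB encodes lymphotoxin beta, a ligand of the non-canonical branch. For NFKBIA they were ZFP36L2 (0.887), MRPS2 (0.861) and TTLL11 (0.859). For BIRC3 they were PUS7 (0.909), GNL3 (0.908) and TXLNG (0.908), and for SQSTM1 they were ARPC5L (0.867), PDF (0.863) and TRAP1 (0.862). Among these 5 genes, RELB was most like TNFAIP3 (r = 0.884) and least like SQSTM1 (0.517).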
